A study of Rattus norvegicus with 24 samples.

Results

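The 10 genes described here are those by which T lymphocytes are commonly recognised: the CD3 chains Cd3d, Cd3e and Cd3g, the coreceptors Cd4, Cd8a and Cd8b, the surface receptors Cd2 and Cd5, and the kinases Lck and Zap70. They are 10 of 21255 genes or unnamed probes that were tested. Each has 1 probe on the array, and each of these 10 probes was well above background on all 24 arrays, as were 20799 of all 30367 probes.

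Lung mRNA was measured with 1-colour Agilent arrays in 24 Fischer-344 (F344) rats of both sexes, 6 in each group with 3 males and 3 females. The labels give an age of 7 to 8 weeks, and the methods give 7 weeks at purchase, before the exposure. The control group inhaled filtered clean air, and the low-dose, middle-dose and high-dose groups inhaled hexanal, a volatile aldehyde, at 600, 1000 and 1500 ppm for 4 h a day on 5 days a week. The titles and treatment labels of the samples and the methods give these doses in ppm, which is used here, whereas the labels' treatment protocol writes mg/m3. That protocol gives 5 weeks of exposure, and the methods give fewer. The labels name no transgene and no other agent, and the RNA came from unsorted lung tissue, so T cells were measured together with all other cells of the lung and its blood. Of 12 lung genes, 11 passed the filter on dim probes, among them the surfactant gene Sftpc. That filter was also passed by 23616 of all 30367 probes and by 12 of 12 NK and cytotoxic genes. The count therefore cannot tell lung from another tissue, and the lung label was not tested by it.

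The T cell receptor recognises antigen but cannot signal by itself. Its signal leaves through the CD3 chains, which Lck, held at the coreceptors CD4 and CD8, phosphorylates, so that Zap70 docks there and passes the signal on. CD2 is an adhesion receptor of T and NK cells, and CD5 dampens receptor signals. In rats CD4 is also found on macrophages, and NK cells can carry CD8 as well as CD2.

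Cd3g, Cd3d and Cd3e follow each other on chromosome 8. Their promoter windows, 250 bases before to 50 after the RefSeq start on GRCr8, are shown because these neighbouring genes were closely correlated across the rats. Capitals mark AGGAAG or GAGGAA (letters of an ETS site), CAGCTG (an E-box) or TGTGGT (RUNX), on either strand. The windows are chr8:54185269-54185568 on the plus strand for Cd3d, chr8:54211721-54212020 on the minus strand for Cd3e and chr8:54183869-54184168 on the minus strand for Cd3g.
Cd3d: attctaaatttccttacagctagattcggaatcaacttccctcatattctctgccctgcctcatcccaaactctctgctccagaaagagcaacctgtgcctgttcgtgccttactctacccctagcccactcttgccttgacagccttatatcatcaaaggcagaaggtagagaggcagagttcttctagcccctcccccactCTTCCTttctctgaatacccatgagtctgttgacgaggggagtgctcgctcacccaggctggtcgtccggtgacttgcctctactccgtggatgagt
Cd3e: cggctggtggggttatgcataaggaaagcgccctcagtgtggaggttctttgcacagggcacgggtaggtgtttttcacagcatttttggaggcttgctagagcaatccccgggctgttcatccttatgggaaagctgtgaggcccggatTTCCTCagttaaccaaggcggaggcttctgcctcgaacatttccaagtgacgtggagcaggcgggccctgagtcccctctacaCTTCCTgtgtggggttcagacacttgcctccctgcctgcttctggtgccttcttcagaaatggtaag
Cd3g: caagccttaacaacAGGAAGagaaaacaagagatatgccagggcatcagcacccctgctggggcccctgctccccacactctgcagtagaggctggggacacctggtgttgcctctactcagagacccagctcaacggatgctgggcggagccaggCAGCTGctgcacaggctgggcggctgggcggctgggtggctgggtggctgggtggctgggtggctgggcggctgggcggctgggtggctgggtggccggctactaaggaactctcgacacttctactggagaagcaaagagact

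The RefSeq table holds 9 windows for the genes, 2 of them of Lck, and none for Cd4 or Cd8b. The letters AGGAAG stood in 7 of 9 windows and in 34.5% of 33469 promoters of the same length. GAGGAA, the ETS letters tried first, stood in 3 of 9 and in 27.6%, and the 2 forms overlap where GAGGAAG occurs. AGGAAG was taken up after that first search had been seen, so its share of windows is a description only. CAGCTG stood in 3 of 9 windows against 15.1% of all, and TGTGGT in 2 of 9 against 17.3%. The letters AGATAA of the Gata3 family stood in 0 of 9 windows against 11.6% of all. TATAAA, of the core promoter box, also stood in 0 of 9, against 14.2%. In the windows printed above, the match begins 47 bases before the start of Cd3d and 17 before that of Cd3e. Both read CTTCCT there, so AGGAAG lies on the other strand. In Cd3g the match reads AGGAAG and begins 236 bases before the start.

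Levels are log2 processed signal minus log2 of the 75th percentile of the same array, so 0 is the level of that percentile. They compare rats for 1 probe and say nothing of one gene against another. In bulk lung, fewer T cells and less RNA per T cell cannot be told apart.

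None of the 10 genes was called at any dose. A call needed a change of at least 1.5-fold and an unadjusted p under 0.05 by limma. Of all genes tested, 0.616% were called at 600 ppm, 1.64% at 1000 ppm and 1.22% at 1500 ppm, and after Benjamini-Hochberg adjustment by limma 0, 4 and 1 genes passed 0.05 (0%, 0.0188% and 0.0047%). At an unadjusted p under 0.05 alone, 0 of the 10 passed at each dose, against 4.33%, 8.99% and 6.97% of all genes. At 600 ppm 9 of the 10 lay below control, with a median difference of -0.24, whereas 50.4% of all genes did, with a median of 0. At 1000 ppm the median was 0.02 with 6 above control, against 51.3% of all genes. At 1500 ppm it was 0.17 with 8 above, against 53.8% of all genes, whose median was 0.01. These are differences below the threshold of the test. No slide of 4 arrays held both control rats and rats of 1000 or 1500 ppm, so differences from control at those doses also lie between slides. Most of the 10 genes were correlated across rats, as described further on, so their directions are not 10 separate results.

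**Figure D1:**
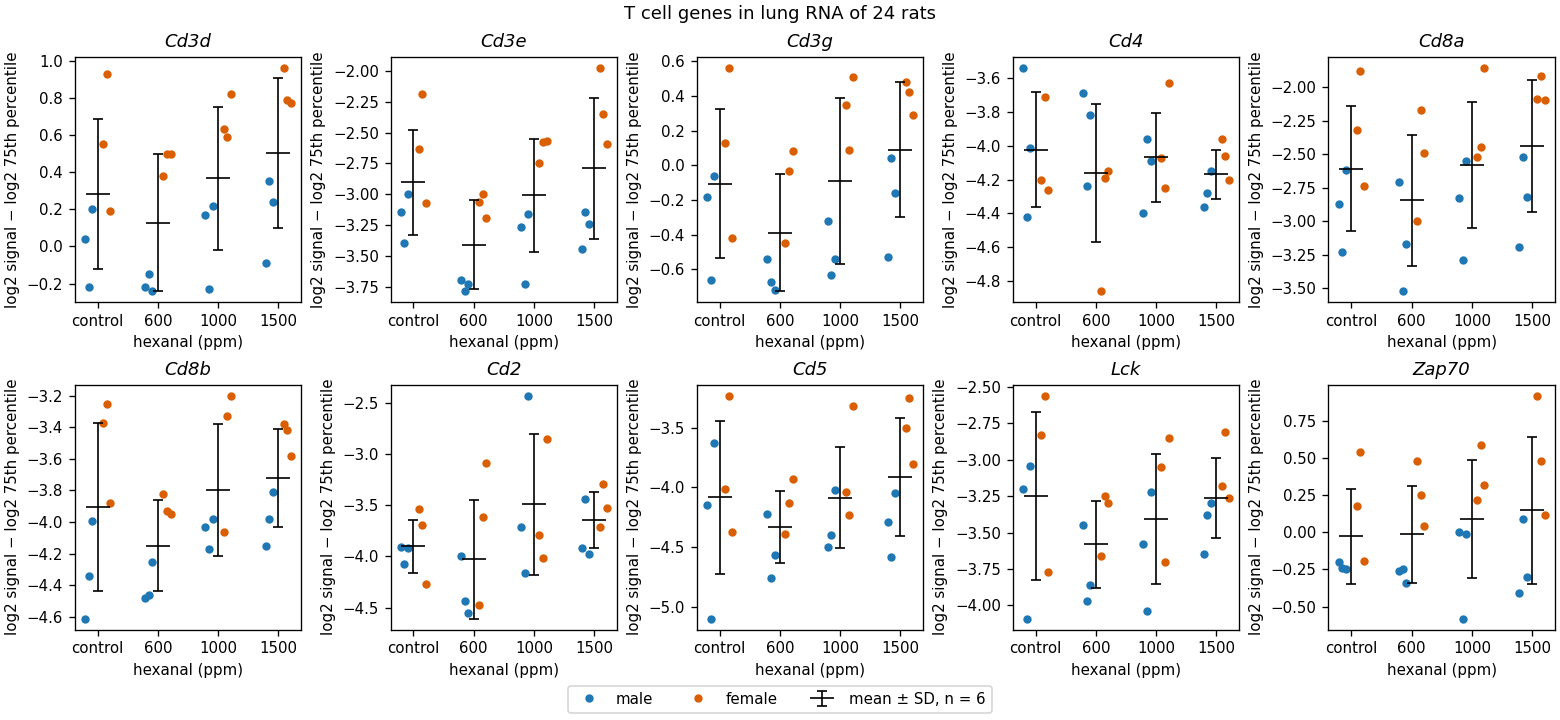
Level (log2 signal minus log2 of the array's 75th percentile) of each T cell gene in 24 rats by hexanal dose in ppm, males in blue and females in orange, with group mean ± SD (n = 6). The groups overlap for every gene, and most orange points sit above the blue ones except for Cd4 and Cd2.

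Cd3e, a signalling chain of the receptor complex, had the widest dose difference. It ran from -3.39 through a median of -3.04 to -2.19 in control rats, and from -3.78 through -3.44 to -3.00 in the low-dose group. The low-dose males were the lowest, and the low-dose females lay among the controls of both sexes. Within each sex the low-dose mean was lower, at -3.73 against -3.18 in males and -3.08 against -2.63 in females. The effect differed between the sexes by 0.10 (unadjusted p 0.71 by limma). The low-dose difference over both sexes was -0.50 (SE 0.25, 95% confidence interval -1.03 to 0.03), with a Benjamini-Hochberg adjusted p of 0.997 by limma. The exact two-sided permutation p was 0.0519 for 6 rats against 6. The smallest p this design allows is 0.00216, and 30 such tests were run. With sex as a covariate the same difference had an SE of 0.13 and an unadjusted p of 0.00115 by limma (adjusted p 0.445), still short of 1.5-fold. Without control rat 2 it was -0.60 and was called, at an unadjusted p of 0.0339 by limma. Within the slides that held both groups, with 1 low-dose rat against 3 controls each, it was -0.51 in males and -0.43 in females. Cd3e was -3.72 to -2.57 at 1000 ppm and -3.44 to -1.98 at 1500 ppm, and both ranges overlapped that of the controls.

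The partner chains showed smaller differences. Cd3d averaged 0.28 ± 0.40 in controls and 0.13 ± 0.37, 0.37 ± 0.39 and 0.50 ± 0.40 (SD, n = 6) from the low to the high dose. Cd3g averaged -0.10 ± 0.43, then -0.39 ± 0.34, -0.09 ± 0.48 and 0.09 ± 0.39. For both, the 95% intervals of the dose differences spanned 0. The slope of Cd3d on dose was called only with sex as a covariate, at 0.17 per 1000 ppm with an adjusted p of 0.372 by limma.

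Cd4, the coreceptor of helper T cells, had the narrowest intervals, with dose differences of -0.13, -0.04 and -0.15, with 95% intervals by limma within -0.50 to 0.31. Cd8a and Cd8b, the chains of the coreceptor of cytotoxic T cells, did not pass at any dose. Cd8a averaged -2.61 ± 0.47 in controls and -2.84 ± 0.49, -2.59 ± 0.47 and -2.44 ± 0.50 with rising dose. Cd8b averaged -3.91 ± 0.53, then -4.15 ± 0.29, -3.80 ± 0.42 and -3.72 ± 0.31. The SD within each group, which holds both sexes, was larger than any of these differences from control.

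Cd2 had the widest difference at 1000 ppm. It ran from -4.27 through -3.91 to -3.54 in controls and from -4.16 through -3.75 to -2.43 in the middle-dose group. The highest value belonged to middle-dose male rat 13, and the other middle-dose rats but 1 female lay within the control range. The difference was 0.40 (SE 0.27), with a Benjamini-Hochberg adjusted p of 0.675 by limma. With slide as a fixed block, the 1500 ppm difference of Cd2 turned from 0.25 to -1.33 and was called (SE 0.44, adjusted p 0.983 by limma). No slide held both control and high-dose rats. That estimate is therefore chained through the low- and middle-dose rats that shared slides with them. In the slide of high-dose males rat 13 was the only middle-dose rat, and there the 3 high-dose males averaged -1.34 relative to it. In the slide of high-dose females the same difference of Cd2 was -0.66, again against 1 middle-dose rat. Within slides, low dose minus control was -0.03 in males and -0.63 in females. Middle minus low dose was 0.55 in males and -0.55 in females.

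Cd5, Lck and Zap70 did not pass either. Lck was lowest relative to control at 600 ppm, at -0.33 (SE 0.23). Zap70 averaged -0.03 ± 0.32 in controls and -0.01 ± 0.33, 0.09 ± 0.39 and 0.15 ± 0.49 in the dose groups. Cd5 averaged -4.08 ± 0.64, then -4.33 ± 0.30, -4.08 ± 0.42 and -3.91 ± 0.50. Control males and females of Cd5 spread over a wider range than any of the dose groups.

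Neighbouring doses gave 0 of 10 calls between 600 and 1000 ppm and between 1000 and 1500 ppm, where 0.63% and 0.522% of all genes were called. At an unadjusted p under 0.05 alone, 0 of 10 passed in both, against 3.28% and 4.98%. A slope on dose passed an unadjusted p under 0.05 by limma for 0 of 10 genes, against 8.49% of all (0.0141% after adjustment). The order of the dose groups therefore rests on differences inside the spread between rats of both sexes. Sex was not in these fits, so that spread holds the sex difference described below. With sex as a covariate the SE of Cd3d at 1500 ppm fell from 0.22 to 0.11, with an unadjusted p of 0.0514 by limma (adjusted p 0.479). None of the T cell genes was called against control in that fit, but the slope of Cd3d passed, as given above. Of 8 cardiac genes 6 passed the filter, and 2 of these were called at 1000 ppm, against 1.64% of all genes. They were Tnnt2 at 2.48 (adjusted p 0.548 by limma) and Actc1 at 1.26 (adjusted p 0.515 by limma). The median difference of the 6 from control was 0.87, 2.05 and 0.63 at 600, 1000 and 1500 ppm. The mean level of the 6 ran from -2.98 to 1.69 in controls and from -0.44 to 3.21 in the middle-dose group, which overlap. The part of this in the values of the T cell genes was not tested.

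**Figure D2:**
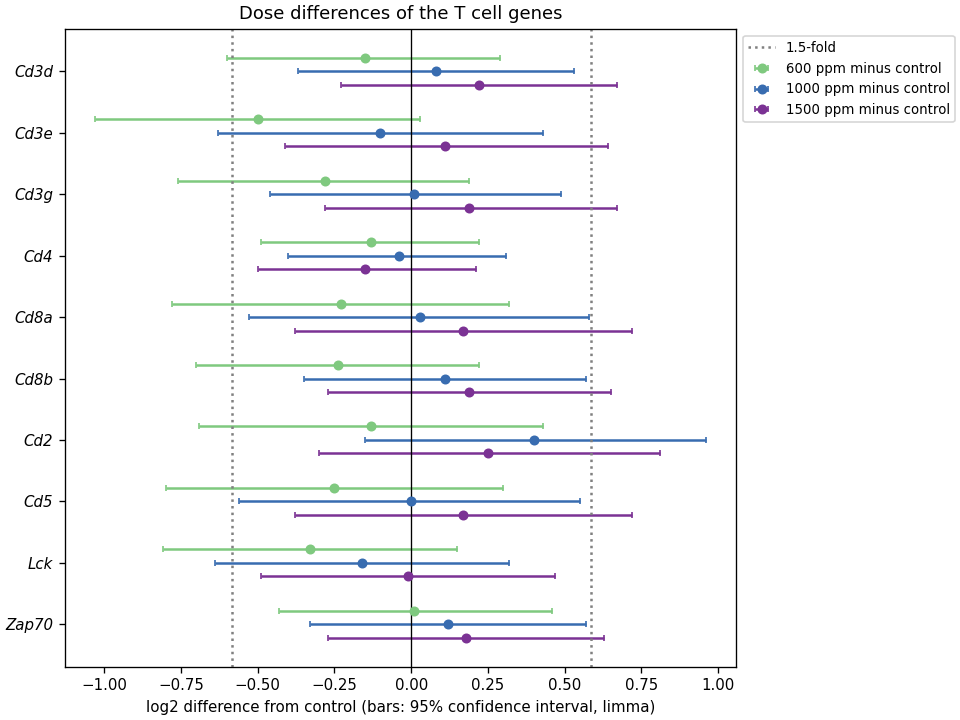
Log2 difference from control of each T cell gene at 600, 1000 and 1500 ppm, with 95% confidence intervals from limma and dotted lines at 1.5-fold. All 30 intervals cross 0, and the point farthest below 0 is Cd3e at 600 ppm (-0.50).

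With dose group as a covariate, 7 of the 10 were higher in the 12 females than in the 12 males at a Benjamini-Hochberg adjusted p under 0.05 by limma: the 3 CD3 chains, Cd8a, Cd8b, Cd5 and Zap70. Of all genes, 15.6% were higher in females and 9.34% higher in males by the same rule, 24.9% together. With a difference of at least 1.5-fold required as well, Cd3d, Cd3e, Cd8a and Cd8b passed, against 2.73% of all genes. That balance depended on scaling: 3307 genes were higher and 1985 lower in females as tested, 2426 and 3233 when arrays were scaled to their median, and 864 and 3710 in the authors' table without scaling, where the median of all genes was -0.14. Cd3d, Cd3e, Cd3g, Cd8a, Cd8b and Zap70 were higher in females under each of these scalings. Each slide of 4 arrays held 1 sex, so sex cannot be separated from slide within a slide. With slide as a random block 6 of 10 passed. Over slide means, 3 against 3, 0 of the 10 and 0 of all genes passed, although the differences were of the same size and the adjusted p-values by limma of the 8 genes other than Cd4 and Cd2 were 0.142 to 0.175.

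Among the CD3 chains, Cd3d ran from -0.24 through a median of -0.02 to 0.35 in males and from 0.19 through 0.61 to 0.96 in females. Only 1 female lay below the highest male. The difference was 0.63 (SE 0.08, adjusted p 1.18e-05 by limma), and the exact permutation of sexes within groups gave 2.5e-05. That permutation moved single rats, although no slide held both sexes. Cd3e ran from -3.78 through -3.32 to -3.00 in males and from -3.19 through -2.61 to -1.98 in females, a difference of 0.73 (SE 0.09, adjusted p 2.57e-05 by limma). In the low-, middle- and high-dose groups every female lay above every male for Cd3e, and in the control group 1 female did not. Cd3g ran from -0.72 through -0.54 to 0.04 in males and from -0.45 through 0.21 to 0.56 in females, a difference of 0.58 (SE 0.10, adjusted p 0.000477 by limma).

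The coreceptors parted. Cd8a ran from -3.52 through -2.85 to -2.52 in males and from -3.00 through -2.24 to -1.86 in females, a difference of 0.65 (SE 0.13, adjusted p 0.00122 by limma). Cd8b ran from -4.61 through -4.16 to -3.81 and from -4.06 through -3.50 to -3.20, a difference of 0.59 (SE 0.10, adjusted p 0.000193 by limma). For both CD8 chains the female median lay above every male. Cd4 ran from -4.42 through -4.12 to -3.54 in males and from -4.86 through -4.17 to -3.63 in females. The Cd4 ranges coincided almost wholly, and the difference was -0.05 (95% interval -0.31 to 0.21, adjusted p 0.795 by limma). Whether Cd4 differed from Cd8a in its sex difference was not tested.

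Zap70, the kinase that docks to phosphorylated CD3 chains, ran from -0.58 through -0.25 to 0.09 in males and from -0.19 through 0.29 to 0.92 in females. It was the only one of the 10 with every female above every male in all 4 groups, as in 1.25% of all genes. Its exact permutation p of 1.25e-05 is the smallest that the 160000 assignments can give. That permutation moved single rats within dose groups, although no slide held both sexes. With whole slides as units, 3 against 3, the smallest two-sided exact p would be 0.1. The Zap70 difference was 0.56 (SE 0.10, adjusted p 0.000466 by limma). For Cd3d, Cd3e, Cd3g and Cd8b every female lay above every male in 3 groups, against 4.78% of all genes in at least 3.

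Lck, the kinase at the coreceptors, ran from -4.09 through -3.52 to -3.04 in males and from -3.77 through -3.21 to -2.56 in females. The 2 ranges overlapped widely, and the difference of 0.38 (SE 0.14) had an adjusted p of 0.0597 by limma. Lck passed when 1 of 4 rats was left out: control rat 3 or 23, or middle-dose rat 13 or 32. Cd5 ran from -5.10 through -4.34 to -3.63 in males and from -4.39 through -3.97 to -3.23 in females, a difference of 0.51 (SE 0.16, adjusted p 0.0238 by limma), and it passed in 3 of 9 other settings. Cd2 ran from -4.55 through -3.95 to -2.43 in males and from -4.47 through -3.65 to -2.85 in females, with 0.22 between the means (SE 0.19, adjusted p 0.414 by limma).

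For 8 of the 10 genes, all but Cd4 and Cd2, each of the 3 female slides had a higher mean than each of the 3 male slides, as in 16.8% of all genes. The same 8 had a higher female mean in all 4 groups, as in 21.4% of all genes. No gene had a dose effect that differed between the sexes at an adjusted p under 0.05 by limma at 600, 1000 or 1500 ppm, where 0%, 0% and 5.02% of all genes did. At an unadjusted p under 0.05, 0 of 10 passed at each dose, against 4.99%, 9.41% and 20.2%.

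**Figure D3:**
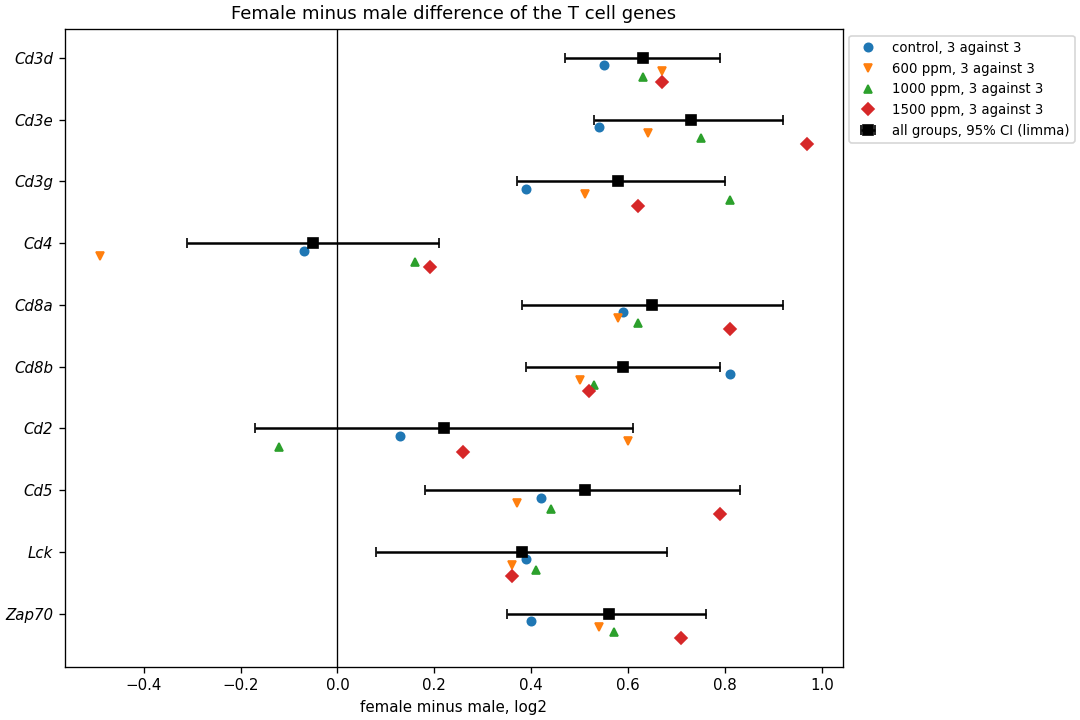
Female minus male difference in log2 for each T cell gene, over all groups (black squares, limma 95% confidence interval) and within each dose group (coloured points, 3 females against 3 males). Cd4 and Cd2 are the genes with an interval across 0, and the other 8 lie above it in all groups.

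The genes also followed each other from rat to rat. With group means removed, the 45 pairs had a median Pearson r of 0.73 and Spearman rho of 0.73 over 24 rats, and r ran from -0.05 to 0.96. The points share slide, sex and array scaling, and the values are descriptions. The 28 pairs without Cd4 and Cd2 had a median r of 0.80 (0.55 to 0.96), whereas the 9 pairs with Cd4 had 0.24 (-0.05 to 0.51). Cd3d and Cd3e, the neighbours on chromosome 8, reached 0.96 (rho 0.93), and Cd3e and Zap70 reached 0.95 (rho 0.93). With sex means removed as well, the 28 pairs had a median of 0.66 (0.16 to 0.89) and the pairs with Cd4 0.47 (-0.02 to 0.73). The distance between Cd4 and the rest was therefore narrower within the sexes.

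Against the mean of the other 9 genes, Cd8a followed most closely (r 0.95, rho 0.95), then Cd3d (0.92) and Cd3g (0.91). Cd2 had an r of 0.52 and Cd4 of 0.26. This order held the sex difference. With sex means removed as well, Cd8a had 0.89, Cd2 0.61 and Cd4 0.60, and the lowest were Cd8b at 0.48 and Zap70 at 0.40. With the 11 macrophage and monocyte genes Cd4 had a median r of 0.19, from -0.58 with the lysozyme gene Lyz2 to 0.50 with the surface receptor Adgre1, and 9 of 11 lay above 0. With sex means removed the median was 0.16. Cd3e had a median r of -0.51 with the same genes, from -0.89 with the mannose receptor Mrc1 to 0.32 with the integrin Itgam, and 9 of 11 lay below 0. With sex means removed that median was -0.05, with 6 of 11 below 0, and the r with Mrc1 was -0.62.

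Mean levels of other lists were set against the mean of the 10 genes in the same way. With group means removed r was 0.84 for receptor signalling and for costimulation genes, and 0.72 for cytokine and homing receptors. For T lineage transcription factors it was 0.10. It was 0.76 for B cell, 0.63 for NK and cytotoxic, 0.57 for lymph node stroma and vessel and 0.26 for all leukocyte genes. For heart muscle it was 0.27, for macrophage and monocyte -0.34, for erythroid -0.67 and for lung genes -0.75. With sex means removed as well r was 0.69 for receptor signalling, 0.57 for costimulation and 0.31 for cytokine and homing receptors. For the transcription factors it was -0.22. It was then 0.69 for lymph node, 0.46 for B cell, 0.43 for NK and cytotoxic and 0.39 for all leukocyte genes. For heart muscle it was 0.57, for macrophage and monocyte 0.45, for erythroid -0.43 and for lung genes -0.50. The mean level of the 6 lymph node genes ran from -3.62 to -0.97 over the 24 rats. Of the 6, 1 was higher in females (Fcer2, 0.89), a share near the 15.6% of all genes. The part of lymph node tissue in the values of the T cell genes was not tested. Among single genes outside the 10, those with the highest r with their mean, group means removed, were Ptprcap (0.92), Tbc1d10c, Cd6 and Ptpn22 (0.91 each), Il21r and Osgin1 (0.90 each), and Mdm2 and RT1-N2 (0.89 each). This order held the sex difference: with sex means removed Ptprcap was the only one of these still among the first 8, and Cd6 ranked 50, Ptpn22 71, Osgin1 105 and Mdm2 114.

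**Figure D4:**
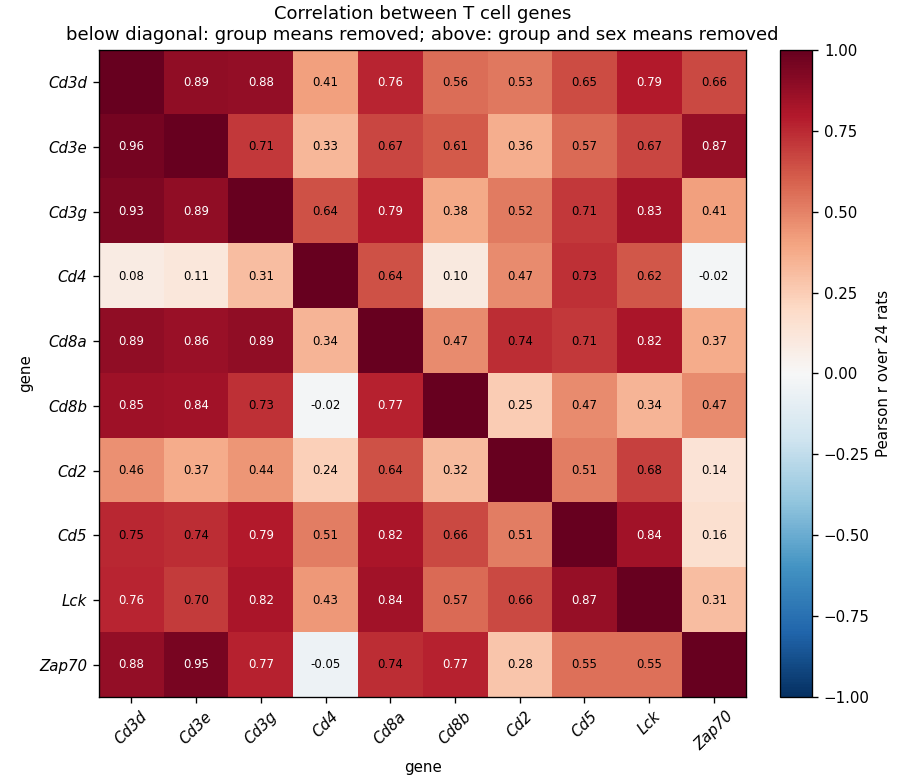
Pearson r between the T cell genes over 24 rats, with group means removed below the diagonal and group and sex means removed above it; the colour bar runs from -1 to 1. The Cd4 row and column are the palest below the diagonal, at -0.05 to 0.51.

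Other genes of the receptor pathway were set beside the 10. Of 15 tested signalling genes 8 were higher and 1 lower in females (median 0.45, against 0.03 for all genes), where 15.6% of all genes were higher and 9.34% lower. Among them were Cd247, the zeta chain of the receptor complex (0.70), and the adaptors Skap1 (0.68) and Lat (0.45), while the kinase Fyn was lower (-0.30). Of 9 costimulation and checkpoint receptors 5 were higher, with Cd6 at 0.71, Cd226 at 0.64, the checkpoint receptor Pdcd1 at 0.63, and Cd27 at 0.62. Of 13 cytokine and homing receptors 6 were higher, among them the interleukin receptor chain Il12rb2 (0.50), and S1pr1 was lower (-0.36). Of 8 transcription factors 2 were higher, Lef1 (0.31) and Tox (0.28), a share not far from the 15.6% of all genes. None of 8 T cell cytokines passed the filter on dim probes, with Ifng and Il21 well above background on 0 of 24 arrays and Il17a on 10.

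Markers of other cells differed by sex as well, and the shares of all genes to set beside them are again 15.6% higher and 9.34% lower in females. Of 12 NK and cytotoxic genes 6 were higher in females (median 0.31) and of 8 B cell genes 4 were (median 0.38), with Cd79b, a signalling chain of the B cell receptor, at 0.87. Of 11 macrophage and monocyte genes 7 were lower (median -0.31), with Mrc1 at -0.58. Of 11 lung genes 4 were lower (median -0.10), with the endothelial Cldn5 at -0.63, and of 5 erythroid genes 3 were lower (median -0.33). The mean level of the B cell list ran from -2.56 to -1.88 in males and from -2.28 to -1.27 in females, and that of the macrophage list from -0.08 to 0.41 and from -0.24 to 0.19. Of 8 genes of all leukocytes 3 were higher and 1 lower, with a median of 0.03. Of the thymus genes, Rag1 was well above background on 0 of 24 arrays, and Arpp21 was the only one of 7 on the array to pass the filter. Arpp21 was higher in females, at 0.52 (adjusted p 0.000256 by limma). Its r with the mean of the T cell genes was 0.83 with group means removed and 0.60 with sex means removed as well. The part of these cells in the sex difference of the T cell genes was not tested.

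**Figure D5:**
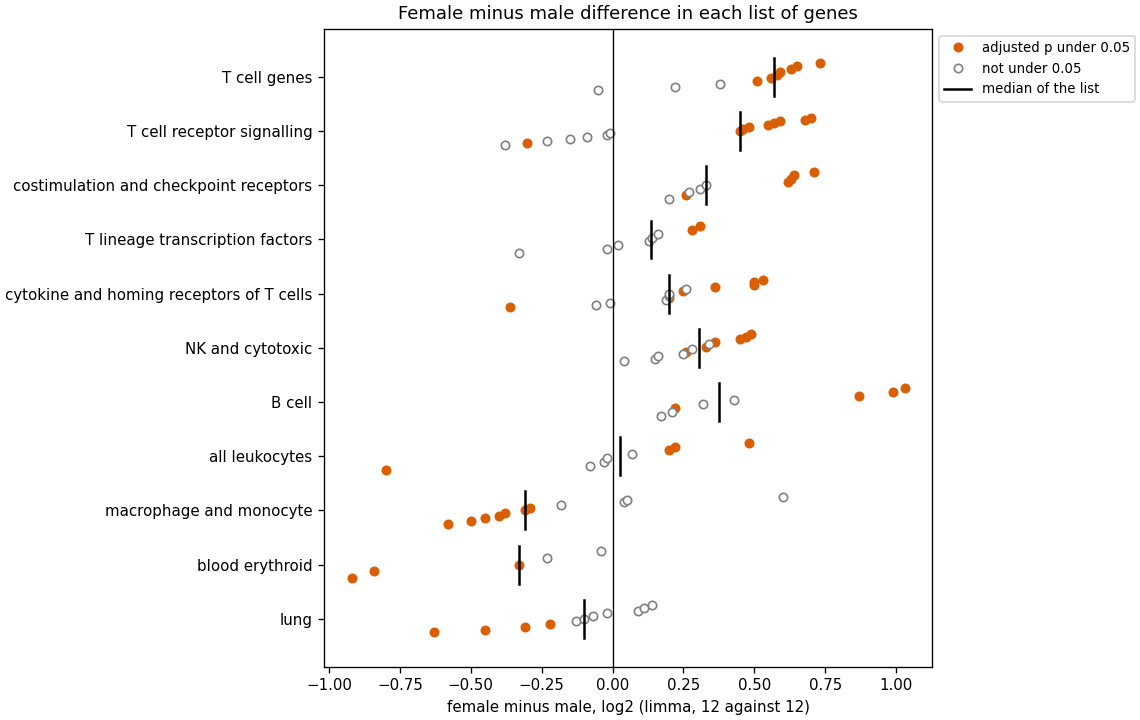
Female minus male difference in log2 for every tested gene of each list (limma, 12 females against 12 males), filled where the adjusted p was under 0.05, with a bar at the list's median. The T cell genes have the highest median (0.57) of the lists shown, and the macrophage and monocyte (-0.31), erythroid (-0.33) and lung (-0.10) lists lie below 0.

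By dose, the T cell lists gave 3 calls among 45 genes, 1 at each dose, where 0.616%, 1.64% and 1.22% of all genes were called. Cd69, an early activation receptor, was -0.62 at 600 ppm (SE 0.19, unadjusted p 0.00364 and adjusted p 0.997 by limma). Klf2, a transcription factor of resting T cells that endothelium also expresses, was -0.79 at 1000 ppm and -1.04 at 1500 ppm (adjusted p 0.515 and 0.174 by limma). Outside them, Cd52 of the leukocyte list was -0.83 and Alas2 of the erythroid list -0.81 at 1500 ppm (adjusted p 0.682 and 0.716 by limma). None of these passed the adjustment over all genes.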

How the data were processed

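Lung RNA of 24 F344 rats was hybridised to 1-colour Agilent rat arrays, 4 arrays on each of 6 slides, all scanned on 1 day. The deposited intensity values are the authors' Agilent Feature Extraction 11.5.1.1 processed signals, background-subtracted on each array without any scaling across arrays. The authors' series table repeats these intensities. Its values lay within a tolerance of 0.001 of the processed signal for most probes.

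The 42877 spots that were not controls were averaged into 30367 probes, of which 18355 (60.4%) were matched by accession to 15443 symbols in a RefSeq table of GRCr8, used for names and for the promoter windows. The log2 signal minus log2 of the array's 75th percentile was used. A probe had to exceed background clearly on 5 or more of the 6 arrays of some group, and the probe with the highest mean stood for a gene. The 75th percentile signal ran from 1700.87 to 3132.89, and the number of arrays limits the precision. Rats of 1 group are separate animals.

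All comparisons were fitted with limma 3.58.1 in R 4.3.3 (data.table, version 1.17.8) on all genes, with lmFit, eBayes and Benjamini-Hochberg adjustment. The methods' t-test was an alternative. Exact permutation tests were two-sided, and the scripts were checked on simulated data. Alternatives were another background correction, scaling, filter, probe rule or threshold, sex or slide in the fit, and leaving out each rat. The members and gene lists were chosen with earlier results of these data known. Named are all 10 members, genes of the other lists called at any dose or set beside a member, and the 8 genes most alike. No set test was run. A few genes of the other lists are not reported here by name. The methylation arrays of the study were not used here.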

Additional observations from a re-analysis of the deposited data

Results flagged for a closer look

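Cd69, an early activation receptor of lymphocytes, was lowest in high-dose rat 16, at -4.83, and the next high-dose rat was at -4.19. That gap was 0.657 of the whole range of the 6 high-dose rats, above Dixon's critical value for 6 samples. It was the only one of 64 groups of 6 rats tested (16 genes in 4 groups) to pass, and chance alone marks about 1 in 20 such groups.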

How the results depend on the processing

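The methods' t-test called 87, 299 and 188 of all genes at the low, middle and high dose at the threshold of the methods, 0, 2 and 1 after Benjamini-Hochberg adjustment, and none of the T cell genes at that threshold. The count of T cell genes called at 600 or 1000 ppm against control was 0 in all 13 other settings. With slide as a fixed block, Cd2 gave the 1 call at 1500 ppm (-1.33, against 0.25 without the block), the 1 call between 1000 and 1500 ppm and the 1 slope on dose. With sex as a covariate the 1 gene with a slope was Cd3d. Leaving out each rat gave 0 to 1 calls at 600 ppm (Cd3e, without control rat 2) and 0 to 1 between 600 and 1000 ppm (Cd2, without low-dose rat 27 or 28 or middle-dose rat 12 or 32), and 0 to 0 for 1000 and 1500 ppm against control, for 1000 against 1500 ppm, for the slope and for the 3 tests of sex by dose. The count higher in females was 7, and 7 to 8 with a rat left out. It was 4 with the 1.5-fold threshold added to the adjusted p (2.73% of all genes), and 0 over slide means, where 3 against 3 slides leave few degrees of freedom. Of 390 dose differences over these settings 21 changed sign, all but Cd2 at 1500 ppm without a call. Another scaling or background correction moved the median of all genes by more than 0.1 at 1000 ppm (-0.12 with normexp background correction, 0.11 in the authors' table without scaling) and by sex (-0.14 in that table). The alternatives of the sex comparison and the left-out rats of the slope, of neighbouring doses and of sex by dose were chosen after seeing the data. No paired analysis was possible because each rat number belongs to 1 group. The causes of these changes were not tested.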
